A study of Mus musculus with 6 samples.

Results

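Ubiquitin is a small protein that cells attach to other proteins to mark them for degradation by the proteasome or to change their signalling. Conjugating enzymes (E2, the Ube2 genes) receive ubiquitin from an activating enzyme, ligases (E3) choose the substrate, and deubiquitinases take ubiquitin off again. Among the ligase genes, the Ube3 genes encode HECT ligases, most Rnf genes encode RING proteins, and cullins (Cul) are scaffolds that bind substrates through adaptors such as F-box proteins (Fbxl, Fbxo, Fbxw). The Usp and Otu genes encode the largest groups of deubiquitinases. In T cells this system sets the threshold of antigen receptor signalling and of NF-kappaB activation.

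The genes described here were taken by symbol, as every gene of the deposited table whose symbol begins with Rnf, Usp or Cul and a digit, with Ube2, Ube3, Fbxl, Fbxo or Fbxw, or with Otu, leaving out Usp18. The rule found 98 of 8468 genes, 11 Ube2, 2 Ube3, 36 Rnf, 3 Cul, 10 Fbxl, 13 Fbxo, 4 Fbxw, 15 Usp and 4 Otu genes. RefSeq lists 276 protein-coding genes under the same pattern, and those outside the table are not analysed here. A symbol does not make an enzyme: Usp6nl, taken by its name, encodes a GTPase-activating protein of Rab proteins and no protease, and Usp53 and Usp54 were long regarded as inactive.

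The RNA came from CD3+ T cells of the spleen, taken after a transplant of haematopoietic stem cells (HSCT). The host strain was Balb/c in both groups. In syn-HSCT (3 libraries) the donor was Balb/c too, and in allo-HSCT (3 libraries) it was C57BL/6, a strain with other transplantation antigens, so donor strain and type of transplant cannot be told apart. Age, sex, conditioning and time after transplant are not given in the labels. Nor do these tie a library to a single animal, and the p-values below therefore describe the spread between libraries, part of which could be technical.

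The library totals recovered from the values ran from 15642385 to 17524496 reads, and the median over the tested ubiquitin genes was 772 reads in a library. Values are FPKM, which scale reads by gene length and by the total reads of the library. The table holds almost no gene with a small change: among 4825 genes averaging over 100 reads, none had a log2 ratio of group means between -0.37 and 0.21. Most genes in it therefore pass a test, and limma (adjusted p under 0.05) called 93.7% of the 5460 genes tested, 47.9% higher and 45.8% lower in allo-HSCT. The range without genes reaches further below 0 than above it, so some rises are in the table at a size at which falls are missing. Markers of other cell types were measured beside those of T cells. Of the T cell markers 11 of 12 are in the table and all rose, with a summed level of 1287 to 1346 FPKM in syn-HSCT and 2294 to 2412 in allo-HSCT. Of the macrophage and monocyte markers 9 of 12 are in the table, 8 of them lower and Ly6c2 higher, with a summed level of 1896 to 2484 FPKM in syn-HSCT and 561 to 790 in allo-HSCT. The summed level of the dendritic cell markers (9 of 10 in the table, 2 higher and 5 lower) was 115 to 123 FPKM in syn-HSCT and 58.5 to 59.0 in allo-HSCT, that of the NK cell markers (6 of 8, 3 higher and 3 lower) 648 to 702 and 469 to 567, and that of the B cell markers (6 of 8, 3 higher and 1 lower) 11.6 to 12.6 and 15.6 to 16.8. No marker of these lists was at 0 in any library. In such bulk samples fewer cells of a type and less RNA per cell cannot be told apart.

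The families moved in different directions. Of the 98 genes, 78 reached 1 FPKM in at least 3 libraries and were tested, and 45 of them rose in allo-HSCT while 28 fell and 5 were not called. That is 93.6% called, close to the 93.7% of all tested genes, so the share called says nothing particular about ubiquitin genes. The directions are 57.7% higher and 35.9% lower, next to 47.9% and 45.8% of all tested genes. The conjugating enzymes fell: 9 of 10 tested Ube2 genes were lower and 1 was higher, with a median log2 fold change of -0.46, next to a median of 0.20 over all tested genes. The other families mostly rose. Of 28 Rnf genes 17 rose and 10 fell, of 18 F-box genes 12 rose and 4 fell, of 13 Usp genes 9 rose and 3 fell, of 4 Otu genes 3 rose and none fell, and both Ube3 genes rose. Of 3 cullins 2 fell and 1 rose. In 73 genes no library of one group reached the other group, and the same held for 91% of all tested genes. In 46 of the 73 all allo-HSCT libraries were above (46.2% of all tested genes) and in 27 all were below (44.8%). Most changes were small. None of the 78 rose by a log2 fold change of 1 or more (3.74% of all tested genes did) and 3 fell by as much (7.91% of all tested genes did).

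**Figure D1:**
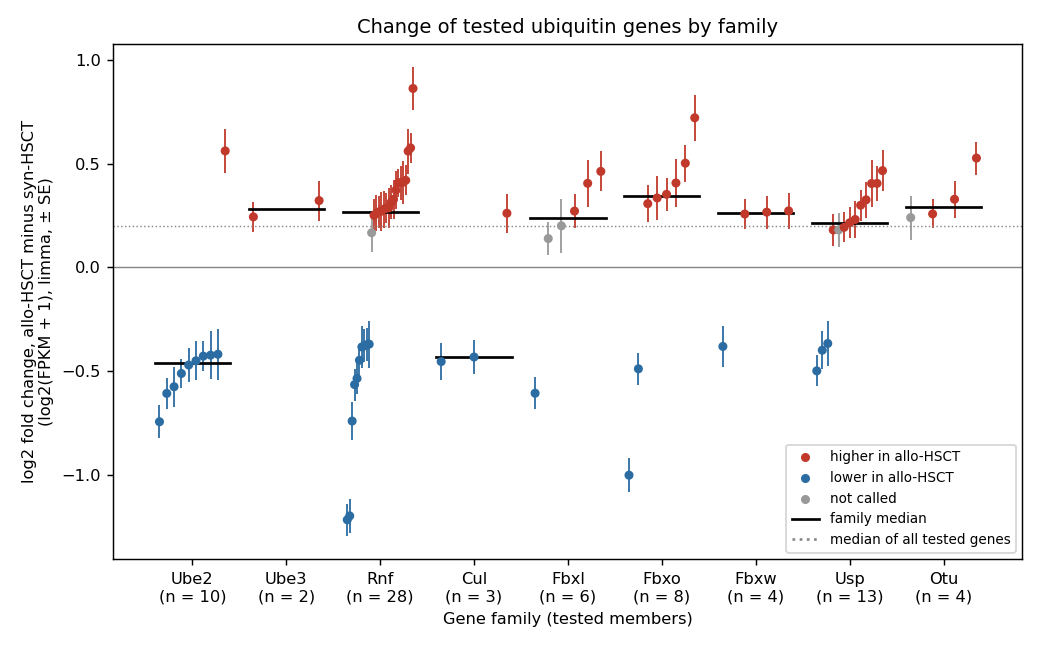
Log2 fold change of each tested gene by family (allo-HSCT minus syn-HSCT on log2(FPKM + 1), points with limma SE, 3 libraries a group), with family medians as black lines and the median of all tested genes dotted. In Ube2, 9 of 10 points lie below 0, with a median of -0.46, while the medians of Rnf, Fbxl, Fbxo, Fbxw, Usp, Otu and Ube3 lie above 0; the empty band around 0 reflects the table, which holds almost no gene with a small change.

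Among the conjugating enzymes the best expressed were the pair that serves the anaphase promoting complex (APC/C), the ligase that ends mitosis. Ube2c starts ubiquitin chains on APC/C substrates and Ube2s extends them. Ube2s stood at 169, 169 and 183 FPKM in syn-HSCT replicates 1 to 3 and at 115, 129 and 131 FPKM in allo-HSCT replicates 1 to 3, the highest level of all 98 genes. The groups did not overlap, and Ube2s fell 1.39-fold (log2 fold change -0.47, SE 0.0819, limma adjusted p = 5.08e-04). An exonic stretch of 183 bases is shared by Ube2s with Rpl28 on the other strand, so their reads may be mixed. Ube2c stood at 95.6, 87.0 and 92.1 FPKM in syn-HSCT and at 57.1, 60.6 and 61.5 FPKM in allo-HSCT. All 3 allo-HSCT values lay below the lowest syn-HSCT value, a 1.53-fold fall (log2 fold change -0.61, SE 0.0737, limma adjusted p = 5.24e-05). Fbxo5, an F-box protein also called Emi1 that inhibits the APC/C, fell with them, from 14.2, 14.9 and 15.9 FPKM to 11, 10.1 and 10.1 FPKM. Ube2t, the conjugating enzyme of the Fanconi anaemia DNA repair pathway, went from 16.8, 16.6 and 13.7 FPKM to 13.5, 9.51 and 11.7 FPKM. The lowest syn-HSCT and highest allo-HSCT values of Ube2t are close, and the fall was 1.36-fold (limma adjusted p = 0.00935). With Cul7, all 5 tested genes of the cell division list fell and none rose, next to 45.8% of all tested genes that fell. The list is short in length, with a median of 988 bases, and 69.7% of all tested genes up to 1500 bases fell. Of 3 tested APC/C subunit genes, Anapc10 and Anapc13 fell and Anapc1 rose (log2 fold change 0.24). The groups of Anapc10 overlapped. Usp44, the sixth in the table, was too low to test. In the same libraries all 5 cell division markers in the table (of 10 fixed) were lower as well, with a summed level of 477 to 507 FPKM in syn-HSCT and 310 to 350 in allo-HSCT. Whether the cell division marker level accounts for these falls was not tested.

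The promoters of these 4 genes are shown because the genes fell together and division genes are known for CCAAT boxes and for the cell cycle genes homology region (CHR). Each is the 250 bases before the RefSeq start (build GRCm38.p6), 5′ to 3′ on the gene's strand, with CCAAT or its complement ATTGG and the CHR letters TTTGAA or TTCGAA, or the complement TTCAAA, in capitals.
Ube2c (chr2:164769679-164769928, + strand): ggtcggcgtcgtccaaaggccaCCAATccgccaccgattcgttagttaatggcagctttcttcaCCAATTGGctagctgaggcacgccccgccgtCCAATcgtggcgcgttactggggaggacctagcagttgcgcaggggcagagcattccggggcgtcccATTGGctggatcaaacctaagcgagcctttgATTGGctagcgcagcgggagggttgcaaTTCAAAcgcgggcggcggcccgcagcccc
Ube2s (chr7:4812341-4812590, - strand): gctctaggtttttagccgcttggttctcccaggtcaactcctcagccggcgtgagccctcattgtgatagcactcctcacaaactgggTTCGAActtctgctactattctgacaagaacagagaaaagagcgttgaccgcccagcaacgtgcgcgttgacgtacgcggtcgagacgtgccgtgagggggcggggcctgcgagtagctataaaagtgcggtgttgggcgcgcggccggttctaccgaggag
Ube2t (chr1:134962315-134962564, + strand): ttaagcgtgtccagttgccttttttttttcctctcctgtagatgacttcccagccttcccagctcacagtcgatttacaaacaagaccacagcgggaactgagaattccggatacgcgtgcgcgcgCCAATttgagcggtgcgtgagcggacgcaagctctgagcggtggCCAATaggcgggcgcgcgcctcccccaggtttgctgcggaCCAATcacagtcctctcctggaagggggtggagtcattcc
Fbxo5 (chr10:5805466-5805715, - strand): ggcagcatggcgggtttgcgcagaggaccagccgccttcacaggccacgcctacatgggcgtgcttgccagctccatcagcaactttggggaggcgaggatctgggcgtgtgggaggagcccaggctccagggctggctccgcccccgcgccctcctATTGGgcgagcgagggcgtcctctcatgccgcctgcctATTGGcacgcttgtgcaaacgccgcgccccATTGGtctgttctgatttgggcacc
The Ube2c window holds 6 CCAAT matches, 2 of which overlap as CCAATTGG, and a CHR match that begins 29 bases before the start. The windows of Ube2t and Fbxo5 hold 3 CCAAT matches each and no CHR match. The Ube2s window holds no CCAAT match and a CHR match 162 bases before the start. Of all 32851 RefSeq windows of this length 33.8% hold a CCAAT match and 17.1% a CHR match on either strand. The promoter of Cul7 was not searched. Windows of Rnf213, Rnf31, Rnf114, Rnf166 and Ube2l6 were searched too, also for the interferon response motifs ISRE and GAS. None of them held an ISRE or GAS match. Rnf213 held 2 CHR matches, 1 window of Rnf114 held 1, and Rnf31 held 1 CCAAT match, and these genes rose. A match of letters is a description and shows no binding.

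The other conjugating enzymes that fell serve a wide range of tasks. Ube2e3 stood at 24.8, 23.6 and 24.4 FPKM in syn-HSCT and at 12.9, 14.4 and 15.0 FPKM in allo-HSCT, with a wide gap between the groups. Its 1.72-fold fall was the largest in the family (log2 fold change -0.74, SE 0.0789, limma adjusted p = 2.14e-05). Ube2k, which builds the lysine 48 chains that lead to the proteasome, went from 15.9, 16.1 and 17.1 FPKM to 11.5, 11 and 11 FPKM, with little spread in either group. Ube2a, which modifies histone H2B and the sliding clamp of DNA replication, fell 1.36-fold, and Ube2w, which attaches ubiquitin to the start of a protein chain, fell 1.65-fold from a low 4.82 ± 0.262 FPKM (SD, n = 3). Ube2f and Ube2l6 carry other modifiers, NEDD8 and the interferon-induced ISG15. Ube2f went from 28.3, 27.5 and 29.8 FPKM to 25.4, 17.6 and 20.8 FPKM, with allo-HSCT replicate 1 close to the syn-HSCT libraries. Ube2l6 went from 29.1, 28.8 and 29.7 FPKM to 24.2, 18.6 and 20.8 FPKM, again with allo-HSCT replicate 1 the highest of its group. The exception was Ube2v1, an inactive relative of the E2 enzymes that pairs with Ube2n to build lysine 63 chains in NF-kappaB signalling. It stood at 21.3, 20.2 and 18.3 FPKM in syn-HSCT and at 25.5, 33.5 and 31.4 FPKM in allo-HSCT. Every allo-HSCT library lay above every syn-HSCT library, and Ube2v1 rose 1.51-fold (log2 fold change 0.56, SE 0.106, limma adjusted p = 8.33e-04). Ube2e2 was too low to test, at 0.885 to 1.30 FPKM in syn-HSCT and 0.652 to 0.890 in allo-HSCT. Ube2a, Ube2e3 and Ube2v1 have close relatives in sequence (Ube2b, Ube2e1 and Ube2e2, and Ube2v2), and Ube2v1 shares exons with a read-through gene, so their values are less certain.

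**Figure D2:**
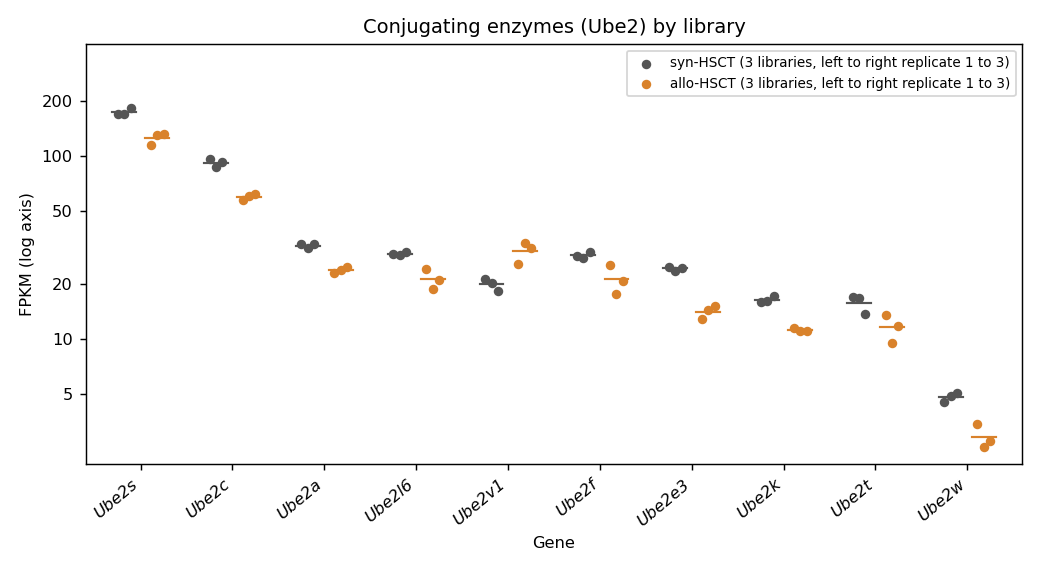
FPKM of the 10 tested conjugating enzyme genes in each library (log axis; points are libraries, lines are group means), ordered by mean level. In 9 of the 10 genes the 3 allo-HSCT points lie below the 3 syn-HSCT points; Ube2v1, at 18.3 to 21.3 FPKM in syn-HSCT and 25.5 to 33.5 in allo-HSCT, lies the other way.

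The Ube2 genes are short, with a median length of 1800 bases as recovered from the values, next to 3361 bases over all tested genes, and in this table short genes fell more often than long ones. Of the genes of up to 1500 bases 69.7% were lower, and of those over 6000 bases 28.4% were lower. With a smooth trend of the values with length removed from each library, 7 of the 10 Ube2 genes were still called lower and 1 higher, and the family median was -0.23. Ube2s (log2 fold change -0.15, limma adjusted p = 0.162) and Ube2t (-0.10, limma adjusted p = 0.393) were no longer called, so the cell division list kept 3 of its 5 falls. Over the 78 ubiquitin genes themselves the Spearman rho of fold change with length was 0.058, and over all 5460 tested genes it was 0.238, both across genes, which are not independent.

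**Figure D3:**
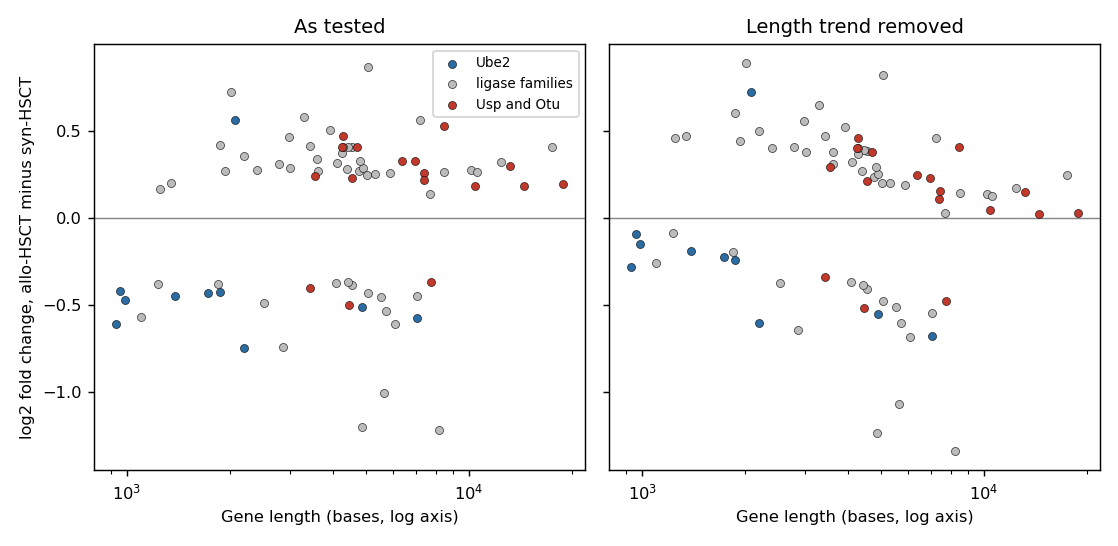
Log2 fold change (allo-HSCT minus syn-HSCT) of the 78 tested genes against gene length (log axis) as tested (left) and with the length trend removed from each library (right), one point per gene. The Ube2 genes, mostly at the short end, move from a median of -0.46 to -0.23.

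Both HECT ligases in the table rose. Ube3c, a ligase that works at the proteasome, went from 11.2, 10.7 and 10.4 FPKM to 13.4, 12.5 and 13 FPKM, and Ube3a, the ligase lost in Angelman syndrome, from 4.03, 3.80 and 3.28 FPKM to 5.51, 4.54 and 4.60 FPKM. The groups do not overlap in either gene, with rises of 1.2-fold and 1.32-fold (limma adjusted p = 0.00963 and 0.0101). With the length trend removed Ube3a was not called (limma adjusted p = 0.142). Ube3a shares exonic bases with antisense transcripts on the other strand, and the strand setting of the counting is not given in the sources used here. In all, 26 of the tested ubiquitin genes share exonic bases with another annotated gene on either strand.

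Of the RING genes the largest rises were those of Rnf157 and Rnf128. Rnf128 encodes GRAIL, a membrane ligase known for keeping anergic T cells unresponsive. It stood at 0.738, 0.849 and 0.796 FPKM in syn-HSCT and at 1.56, 1.72 and 1.75 FPKM in allo-HSCT. The groups are far apart relative to their spread, and the 2.11-fold rise (log2 fold change 0.58, SE 0.0735, limma adjusted p = 7.26e-05) rests on 130 reads over the syn-HSCT and 278 over the allo-HSCT libraries. Rnf157, a ligase described mainly in neurons, went from 4.23, 3.80 and 3.57 FPKM to 6.74, 8.71 and 8.19 FPKM. That is a 2.04-fold rise (log2 fold change 0.86, SE 0.102, limma adjusted p = 4.31e-05), the largest of all 78 genes on the log2(FPKM + 1) scale. Because that scale understates the change of low genes, Rnf128 has the larger fold and the smaller log2 value. The summed level of the T cell markers was higher in the same libraries, as given above, and its part in these rises was not tested.

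Further RING genes with rises are known from signalling. Rnf31, also called HOIP, is the catalytic subunit of the complex that makes linear ubiquitin chains in NF-kappaB signalling. It stood at 18, 15.4 and 18.4 FPKM in syn-HSCT and at 20.1, 25.0 and 24.8 FPKM in allo-HSCT, with allo-HSCT replicate 1 nearest to the syn-HSCT libraries (1.35-fold, limma adjusted p = 0.00429). Rnf123, a ligase that acts on the cell cycle inhibitor p27 and on the NF-kappaB precursor p105, went from 19.0, 18.9 and 22.2 FPKM to 25.6, 33.6 and 31.2 FPKM. The groups did not overlap, and Rnf123 rose 1.5-fold (limma adjusted p = 9.43e-04). Of the 18 genes fixed for the linear and lysine 63 chain list the table holds 3, Rnf31, Ube2v1 and the deubiquitinase gene Otud7b. All 3 rose, next to 47.9% of all tested genes. Rnf31 shares exonic bases with Irf9 on the same strand, so its reads may be mixed with those of Irf9.

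Of the interferon and antiviral list 4 of 6 tested genes rose (Otud4, Rnf114, Rnf166 and Rnf213), 1 fell and 1 was not called. Among all tested genes 47.9% rose and 45.8% fell. Rnf213, a very large ligase induced by interferon, stood at 19.9, 20.7 and 19.9 FPKM in syn-HSCT and at 24.8, 29.8 and 26.9 FPKM in allo-HSCT (1.35-fold, limma adjusted p = 0.00116). Rnf166 went from 47.9, 50.5 and 48.2 FPKM to 62.2, 67.4 and 67.6 FPKM, and Rnf114 from 48.6, 46.1 and 44.3 FPKM to 55.1, 56.1 and 58.8 FPKM. Both are ligases of antiviral signalling, and in both the lowest allo-HSCT library lay above the highest syn-HSCT library. The member that fell was Ube2l6, and Otud1, at 11.4 to 12.5 FPKM in syn-HSCT and 11.8 to 15.8 in allo-HSCT, missed the threshold (limma adjusted p = 0.0507, and 5.68e-04 without allo-HSCT replicate 1).

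The largest falls among the RING genes were larger than the largest rises. Small falls are missing from the table over a wider range than small rises, so the sizes of all falls and all rises are not compared. Rnf130, the mammalian goliath ligase of endosomal membranes, stood at 13.9, 12.8 and 12.2 FPKM in syn-HSCT and at 4.90, 4.94 and 5.15 FPKM in allo-HSCT. The allo-HSCT libraries are nearly equal, and the 2.59-fold fall (log2 fold change -1.22, SE 0.0775, limma adjusted p = 7.00e-07) is the largest log2 change of all 78 genes. Rnf144b, a ligase of the RING-between-RING class, went from 7.67, 7.40 and 6.54 FPKM to 2.48, 2.56 and 2.67 FPKM (2.80-fold lower, limma adjusted p = 1.10e-06). Rnf217 of the same class fell 2.88-fold from 1.60 ± 0.186 to 0.555 ± 0.129 FPKM (SD, n = 3). Its fold rests on 226 reads over the syn-HSCT and 80 over the allo-HSCT libraries (log2 fold change -0.74). Among the F-box genes Fbxo30 fell 2.57-fold, from 4.48, 4.98 and 4.29 FPKM to 1.95, 1.77 and 1.65 FPKM (limma adjusted p = 4.05e-06). In the same libraries the macrophage and monocyte marker sum was 1896 to 2484 FPKM in syn-HSCT and 561 to 790 in allo-HSCT, and the granulocyte marker sum, over 9 of 12 markers of which 4 fell and 5 rose, was 1649 to 1670 FPKM and 854 to 992. The part of these cells in the 4 falls was not tested.

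**Figure D4:**
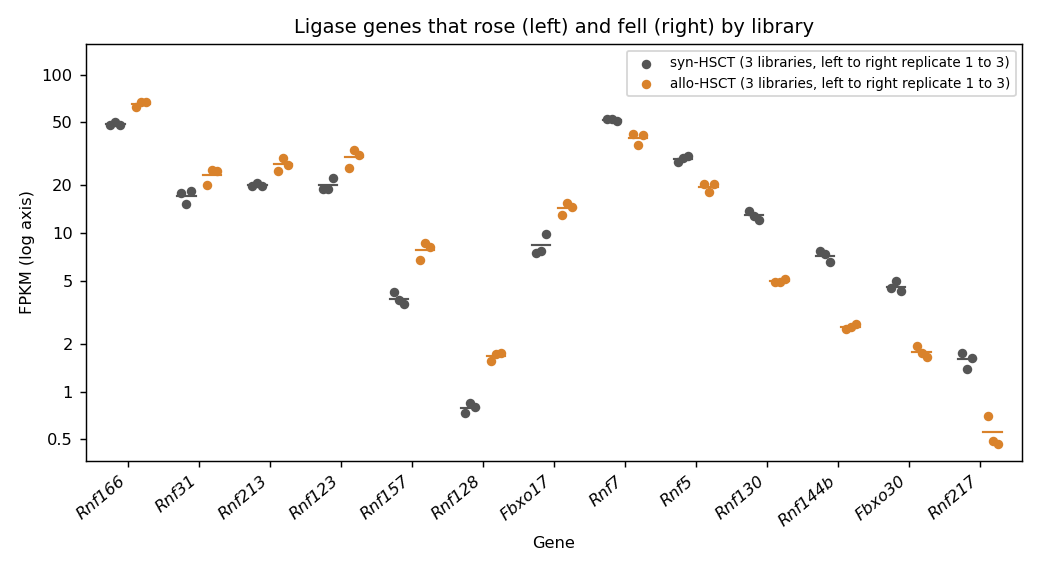
FPKM of 13 ligase genes in each library (log axis; points are libraries, lines are group means), with genes that rose on the left and genes that fell on the right. The groups do not overlap in any of the 13; Rnf130 drops from 12.2 to 13.9 FPKM in syn-HSCT to 4.90 to 5.15 in allo-HSCT, while Rnf157 goes from 3.57 to 4.23 FPKM to 6.74 to 8.71.

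Rnf144b, Rnf217 and Fbxo30 were picked for their falls after the values were seen, as Rnf157 was for its rise, and so were Ube2w, Fbxl4, Fbxl19, Fbxo21, Usp20, Usp30 and Usp54. Within the RING family 3 classes, also grouped after their values were seen, held both directions. Of the 5 tested transmembrane ligases with a protease-associated domain, Rnf13, Rnf43, Rnf130 and Rnf149 fell and Rnf128 rose. Rnf43, which removes Wnt receptors from the cell surface, was 1.35-fold lower and Rnf149 1.42-fold lower. Rnf13 was 1.31-fold lower, with overlapping groups: allo-HSCT replicate 1 at 13.5 FPKM lay beside syn-HSCT replicate 3 at the same rounded value. Of the 6 RING-between-RING ligases, Rnf14, Rnf19a and Rnf31 rose and Rnf144a, Rnf144b and Rnf217 fell. Rnf19a was among the steadiest, at 30.6, 29.3 and 29.7 FPKM in syn-HSCT and 41.4, 39.2 and 39.4 FPKM in allo-HSCT. Of 4 ligases of the endoplasmic reticulum, Rnf139, Rnf145 and Rnf170 rose and Rnf5 fell 1.5-fold, from 28.1, 29.8 and 30.5 FPKM to 20.4, 18.1 and 20.4 FPKM. Rnf2, a catalytic subunit of the Polycomb complex that marks histone H2A, fell from 19.7 ± 0.953 to 15.0 ± 1.17 FPKM. Rnf187 had the highest mean of the family, at 53.6, 50.5 and 51.4 FPKM in syn-HSCT and 54.3, 65.8 and 69.0 FPKM in allo-HSCT, and its small rise (1.22-fold, limma adjusted p = 0.0205) was not called when any of 4 libraries was left out (limma adjusted p = 0.0564 to 0.0917 without syn-HSCT replicate 2 or 3 or allo-HSCT replicate 2 or 3).

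Cullins form ligases with a RING subunit, an adaptor and a substrate receptor, and need NEDD8 on the cullin to be active. Cul4b, the scaffold that binds Ddb1, stood at 19.4, 21.2 and 20.1 FPKM in syn-HSCT and at 16.2, 14.0 and 14.1 FPKM in allo-HSCT, a 1.37-fold fall without overlap (limma adjusted p = 8.09e-04). Cul7 fell 1.51-fold from 3.86 ± 0.284 to 2.55 ± 0.281 FPKM. Cul9, a cytoplasmic partner of p53, rose 1.28-fold (limma adjusted p = 0.0228), a call that was lost without any of 4 libraries (limma adjusted p = 0.0600 to 0.0905 without allo-HSCT replicate 2 or 3 or syn-HSCT replicate 1 or 2) and with the length trend removed (limma adjusted p = 0.134). Rnf7, the RING subunit that serves Cul5, fell with Ube2f, the NEDD8 enzyme that acts with it. Rnf7 stood at 52.5, 52.2 and 51.3 FPKM in syn-HSCT and at 41.9, 36.0 and 41.6 FPKM in allo-HSCT (1.30-fold lower, limma adjusted p = 0.00151), which was not called with the length trend removed (limma adjusted p = 0.247).

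F-box proteins give cullin 1 ligases their substrates, and 12 of 18 tested rose. Fbxo17, a receptor of sulphated glycoproteins, rose most, from 7.49, 7.69 and 9.95 FPKM to 13, 15.5 and 14.6 FPKM (1.72-fold, log2 fold change 0.72, SE 0.111, limma adjusted p = 2.45e-04). Fbxo21 rose 1.5-fold, and Fbxl4, a protein of the mitochondrial outer membrane that limits mitophagy, rose 1.47-fold from 4.04 ± 0.489 to 5.94 ± 0.489 FPKM. Fbxl12, known for the turnover of cyclin-dependent kinase inhibitors, stood at 10.1, 10.9 and 10.2 FPKM in syn-HSCT and at 12.0, 17.0 and 13.8 FPKM in allo-HSCT (1.37-fold, limma adjusted p = 0.00705). Its 3 allo-HSCT libraries are spread widely but all lie above syn-HSCT. An exonic stretch of 1878 bases is shared by Fbxl12 with Ubl5 on the other strand, so their reads may be mixed. Fbxw5 and Fbxw2, the best expressed Fbxw genes, rose 1.22-fold and 1.21-fold, and Fbxl20 rose 1.23-fold. Fbxl19, a protein that binds unmethylated CpG islands, fell 1.68-fold from 5.72, 5.93 and 5.36 FPKM to 3.21, 3.36 and 3.56 FPKM, the largest fall after Fbxo30. Fbxw9 fell 1.37-fold, and with the length trend removed neither Fbxw9 nor Fbxl20 was called (limma adjusted p = 0.0666 and 0.103). Of the remaining Fbxo genes Fbxo25, Fbxo31, Fbxo44 and Fbxo46 rose 1.32-fold to 1.5-fold, and Fbxw17 rose 1.29-fold. Fbxl15 and Fbxl18 were not called (limma adjusted p = 0.156 and 0.109).

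The deubiquitinases rose more often than they fell. Of 17 tested Usp and Otu genes 12 rose, 3 fell and 2 were not called, and the rises were small, between 1.17-fold and 1.55-fold. That is 70.6% higher and 17.6% lower, next to 47.9% and 45.8% of all tested genes. These genes are long, with a median of 6969 bases, and of all tested genes over 6000 bases 66.8% rose and 28.4% fell. Of the 9 Usp rises 5 were called with the length trend removed, and 5 without allo-HSCT replicate 2. Otud7b, also called Cezanne, acts on Zap70 after T cell receptor engagement and on Traf3 in NF-kappaB signalling. It stood at 4.08, 4.08 and 3.90 FPKM in syn-HSCT and at 5.71, 6.50 and 6.54 FPKM in allo-HSCT, the largest rise of the group (1.55-fold, log2 fold change 0.53, SE 0.0797, limma adjusted p = 2.16e-04). Usp9x, which acts in T cell receptor signalling, went from 9.98, 10.1 and 9.09 FPKM to 12.6, 12.1 and 11.9 FPKM, with separate groups (1.25-fold, limma adjusted p = 0.00413, and 0.0980 with the length trend removed). Usp12, which keeps the T cell receptor at the cell surface, went from 24.3, 22.0 and 19.9 FPKM to 26.9, 26.4 and 24.7 FPKM. The range of the syn-HSCT libraries of Usp12 is wider than the difference between the group means, and its rise (1.18-fold, limma adjusted p = 0.0275) was not called without allo-HSCT replicate 2, syn-HSCT replicate 2 or syn-HSCT replicate 3 (limma adjusted p = 0.0657 to 0.109). Usp30, which opposes mitophagy at the mitochondrial outer membrane, rose 1.39-fold, Usp20 1.45-fold and Usp28, known for stabilising Myc, 1.35-fold. Otud4, the best expressed of the group, rose 1.2-fold from 25.6, 25.5 and 24.5 FPKM to 29.0, 30.8 and 31.2 FPKM.

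The fall of Usp14 stands beside those of proteasome genes. Usp14 is a deubiquitinase bound to the proteasome, and it stood at 19.7, 18.2 and 18.4 FPKM in syn-HSCT and at 13.3, 12.2 and 13.5 FPKM in allo-HSCT. No library of one group reached the other, and the fall was 1.44-fold (log2 fold change -0.50, SE 0.0753, limma adjusted p = 2.13e-04). Its exons overlap those of Thoc1 on the other strand, which fell too (log2 fold change -0.46), and reads of the 2 genes may be mixed. Uchl5, the other cysteine protease of the proteasome, was 1.59-fold lower, at 33.3 ± 0.532 and 20.9 ± 1.00 FPKM (SD, n = 3). All 4 tested proteasome subunits (of 32 fixed) were lower as well. These 4 genes are short, with a median length of 1425 bases. Among all tested genes, 69.7% of those up to 1500 bases and 54.9% of those from 1500 to 2500 bases were lower. The 4 subunits were not counted separately with the length trend removed. Usp11, a deubiquitinase of DNA repair, fell 1.35-fold, and Usp54 1.45-fold. Usp3, Usp31, Usp32, Usp53 and Otud3 rose 1.17-fold to 1.38-fold, and Usp6nl, at 2.41 to 2.8 FPKM in syn-HSCT and 2.86 to 3.29 in allo-HSCT, was not called (limma adjusted p = 0.0592).

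**Figure D5:**
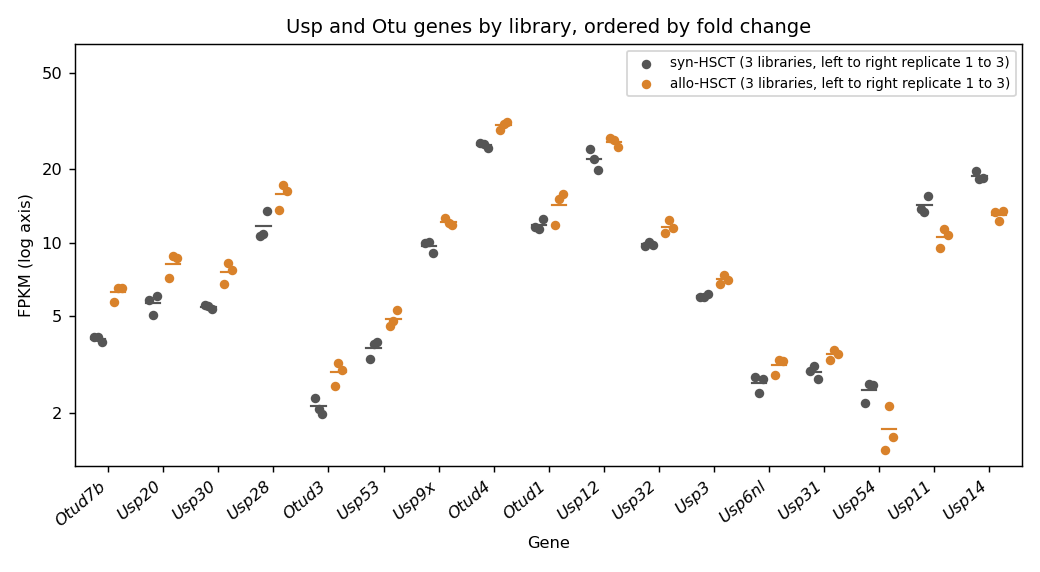
FPKM of the 17 tested Usp and Otu genes in each library (log axis; points are libraries, lines are group means), ordered by log2 fold change from the largest rise to the largest fall. Otud7b on the left goes from 3.90 to 4.08 FPKM in syn-HSCT to 5.71 to 6.54 in allo-HSCT, and Usp14 on the right drops from 18.2 to 19.7 FPKM to 12.2 to 13.5; Otud1 overlaps between the groups.

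The role lists hold few tested genes each, in a table where 93.7% of all tested genes were called, 47.9% higher and 45.8% lower. No list was tested against these shares. By role, 6 of the 8 tested genes of the T cell activation and tolerance list rose (Fbxl12, Otud7b, Rnf111, Rnf128, Usp12 and Usp9x) and 2 fell (Cul4b and Rnf2), out of 30 fixed. Of the histone and DNA repair list 2 rose (Usp28 and Usp3) and 3 fell (Rnf2, Ube2a and Ube2t) of 5. The call of Usp3 was lost without allo-HSCT replicate 2 or 3 or syn-HSCT replicate 1 or 2 (limma adjusted p = 0.0749 to 0.0926), and with the length trend removed the list had 1 higher and 2 lower. Of the late red cell list 3 rose (Rnf123, Rnf14 and Usp12) and 2 fell (Ube2c and Ube2l6) of 5. The erythroid marker sum, over 11 of 12 markers of which 5 rose and 3 fell, was 276 to 311 FPKM in syn-HSCT and 375 to 461 in allo-HSCT.

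Of 155 further ubiquitin pathway genes fixed by name, 51 are in the table, and 30 of them rose and 20 fell. The list of ligases most studied in T cells or related to them has 26 genes in the table. It also holds Ndfip1 and Ndfip2, which are adaptors of ligases and both rose. Of the 26 genes 21 rose and 5 fell, in a table where 47.9% of all tested genes rose and 45.8% fell. The genes of this list are long, with a median of 7902.5 bases, and 66.8% of all tested genes over 6000 bases rose. With the length trend removed, 24 of the 51 pathway genes were called higher and 14 lower. The 26 genes of this list were not counted separately. Dtx1, a ligase linked to T cell anergy, rose from 38.9 ± 2.83 to 77.8 ± 15.7 FPKM (SD, n = 3; log2 fold change 0.96, limma adjusted p = 1.48e-04). Cblb, which raises the threshold of T cell activation, rose 1.44-fold from 15.5 ± 1.03 to 22.4 ± 0.775 FPKM. Nedd4, a HECT ligase, fell 2.06-fold from 20.9 ± 0.966 to 10.2 ± 0.339 FPKM. Peli2, a relative of the T cell ligase Peli1, fell 6.82-fold from 1.35 ± 0.101 to 0.198 ± 0.0528 FPKM. This fold rests on 476 reads over the syn-HSCT and 71 over the allo-HSCT libraries, and the log2 fold change on log2(FPKM + 1) was -0.97. The deubiquitinase gene Cyld, a negative regulator of NF-kappaB, rose 1.40-fold, and Tnfaip3, which encodes A20, was at 583 ± 16.2 and 675 ± 67.0 FPKM and was not called (limma adjusted p = 0.0586). At the head of the pathway the activating enzyme genes rose where most E2 genes fell: Uba1, which charges ubiquitin, rose 1.36-fold from 66.4 ± 5.97 to 90.2 ± 7.0 FPKM, and Uba7, which charges ISG15 for Ube2l6, rose 1.30-fold from 49.4 ± 4.2 to 64.0 ± 4.13 FPKM.

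Within allo-HSCT, replicate 1 stood apart. In the 45 genes that rose it was the lowest of the 3 allo-HSCT libraries in 34 (75.6%), as it was in 62.5% of all tested genes that rose. In the 28 that fell it was the highest in 14 (50%) and the lowest in 13 (46.4%), next to 53.6% and 30% of all tested genes that fell. Without it 48 genes were called higher and 28 lower, and the Ube2 genes stood at 9 lower and 1 higher as before.

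The 20 genes that did not reach the filter had means of up to 0.931 FPKM over all libraries and are given as levels. Fbxo10, with the second highest level among them, was at 0.632 to 0.769 FPKM in syn-HSCT and 0.930 to 1.42 in allo-HSCT. Fbxl2 was at 0.531 to 0.657 FPKM in syn-HSCT and 0.295 to 0.5 in allo-HSCT, and Rnf151, a gene known from testis, gave 12 reads in all syn-HSCT libraries and 0 in allo-HSCT.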

How the data were processed

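The deposited table gives a value per gene and library for the 6 libraries. No header names its unit. Library totals were found from genes with 1 annotated transcript, using its length. Each gene's length was then taken as the smallest whole number that turned all 6 values into whole reads (within 0.0001). Such a length was found for all 8468 genes, and the authors' deposited values were taken as FPKM. The recovered lengths were fitted to the values, and no comparison with annotated lengths is given here. The submitters' processing notes name limma; for aligner, counter, build and strand, the choice is not given in the sources used here. Tests were run with limma 3.58.1 (R 4.3.3, two-sided, Benjamini-Hochberg over all 5460 genes tested) on log2(FPKM + 1) for genes of at least 1 FPKM in at least 3 libraries, and the script was tested on simulated data. Named genes are, per family, up to 3 that rose and 3 that fell most without overlap and at or above the median level of tested genes, the best expressed, and members of the lists; every other gene named was chosen after its values were seen. The genes and lists were chosen with earlier results of these data known. Replicate numbers did not pair the samples. Precision is limited by 3 libraries a group. Alternatives covered pseudocount, filter, scaling, gene length, library weights, a replicate block and leaving out each library.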

Additional observations from a re-analysis of the deposited data

How the results depend on the processing

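No ubiquitin gene reversed under any alternative, and 55 of the 78 kept direction and call under every setting they were in, while 18 lost the call under at least 1. With each library left out in turn 37 to 48 genes were called higher and 28 lower each time. Small families moved most. With the length trend removed, the genes called higher were 1 in Ube3, 0 in Cul and 5 in Usp, and those called lower in Fbxw were 0. With a mean of at least 5 FPKM required, 1 Ube3 and 0 Cul genes were called higher, and 1 Cul, 0 Fbxl, 1 Fbxo and 1604 of all tested genes lower; the filter tests fewer genes. Library quality weights called 5 Fbxl genes higher, and no filter called 2 Fbxl genes lower. Leaving out each library in turn gave 0 to 1 Cul genes and 5 to 10 Usp genes higher, with the 5 without allo-HSCT replicate 2. With the replicate block 44 genes were called higher and 28 lower; numbers do not pair the samples (correlations -0.02, -0.20 and 0.08). The causes were not tested. Genes near 1 FPKM rest on few reads, down to a mean of 46.2 per library.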
